A study of Coprinopsis cinerea with 7 samples.

Results

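The windows described here are the 6602 windows of 300 bp in the interior of chromosome 6 of Coprinopsis cinerea, of 120537 windows in all. They were chosen by position alone, as windows of chromosome 6 that start beyond 20 kb and stop at least 20 kb below the chromosome's last window end. They span chr6:20101-2000700 in the coordinates of the window tables, for which the sources used here name no genome build. Coprinopsis cinerea is an ink cap mushroom used as a model of fungal development, and the DNA came from oidia, its asexual spores. The samples were 5 anti-CMS immunoprecipitation (IP) libraries and 2 inputs, DNA taken without immunoprecipitation. The labels give the IP libraries as 3 technical replicates of biological replicate 1 and 2 technical replicates of biological replicate 2. Each biological replicate has 1 input. No strain, treatment or mutation is given in the labels, so every comparison is of IP with input in oidia. In the tables each group has 2 columns, one tagged 1_1 and the other B_1. No label carries those tags, and how the 5 IP libraries became 2 columns is not stated, so p-values measure only the spread between these columns, which may be technical.

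The assay, CMS-seq, maps 5-hydroxymethylcytosine (5hmC). Enzymes of the TET/JBP family oxidise 5-methylcytosine to 5hmC, sodium bisulfite converts 5hmC to cytosine-5-methylenesulfonate, or CMS, which a specific antiserum binds, so that fragments with CMS can be immunoprecipitated. A window with a higher scaled level in IP than in input is called higher in IP here. Whether CMS was the cause of any such difference was not tested. Fungal DNA methylation is often densest in repeats and transposons, which short reads cannot always place at 1 position, so the treatment of reads that map to several places bears on any such map.

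The counts came in 2 tables over the same windows. The primary table held 106176723 and 67181684 counts in IP, against 36059418 and 36233140 in input, genome-wide. The other, called the multi-mapped table here, has both MultipleMapped and Unique in its name, and how its reads were chosen is not stated. It held 24990768 and 19994333 counts in IP, against 28735765 and 27600179 in input. Within the interior the median window had 785.5 and 481 primary counts in IP 1_1 and IP B_1, against 284 and 292 in input 1_1 and input B_1. The multi-mapped medians were 198 and 152 in IP, against 239 and 232 in input. The highest primary count of an interior window was 114016 and 75480 in IP, against 34352 and 34576 in input. By multi-mapped counts it was 1058 and 1035 in IP, against 1056 and 1040 in input, so nearly equal in all columns. Whether counts per window were limited there is not stated, and it bears on any fold that differs between the tables. The column pairs were compared with sampling noise as a chi-square per degree of freedom over interior windows. The IP pair had 9.39 in the primary table and 1.89 in the multi-mapped table. The input pair had 1.93 in the primary table and 0.894 in the multi-mapped table. The 2 inputs thus differed by less than sampling noise in the multi-mapped table but by more in the primary table, and were kept as 2 columns. Values below are CPM, each column's counts divided by its TMM-scaled total in units of 1e6 counts, and fold changes are IP over input.

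Summed over the whole interior, chromosome 6 had a higher level in IP than in input. The interior held 63876 and 65131 CPM in IP 1_1 and IP B_1, against 56591 and 55846 CPM in input 1_1 and input B_1. Both IP columns lay above both inputs. This was not particular to chromosome 6. All 15 parts of the genome tested were called higher in the primary table, and 10 of them in the multi-mapped table. The 15 parts make up the whole genome, so all of them can be higher only through the TMM scaling. Its factors in the primary table were 0.960 and 0.942 in IP, against 1.04 and 1.06 in input. In the primary table the interiors of chromosomes 13 and 7 had log2 fold changes of 0.25 and 0.20. The log2 fold change of the chromosome 6 interior was 0.20 ± 0.02 (SE, n = 2 columns each; edgeR's quasi-likelihood test, adjusted p = 1.53e-09 over 15 parts of the genome). An exact two-sided permutation test over the 4 columns gave p = 0.333, the smallest it can give. The multi-mapped table gave 68001 and 73231 CPM in IP, against 63444 and 62962 CPM in input. Its log2 fold change was 0.16 ± 0.04 (SE, n = 2 columns each; edgeR's quasi-likelihood test, adjusted p = 0.0131), which missed the threshold with a replicate block (adjusted p = 0.0710). Scaled by library totals alone, the primary value was 0.05, in a scaling where the median of all windows lay at -0.16 in place of -0.01. The interior took 6.13% and 6.14% of all primary counts in IP, against 5.91% and 5.91% in input.

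Single windows were called with a test over the whole genome at an adjusted p under 0.05. Among the 6356 interior windows tested in the primary table, 836 (13.2%) were higher in IP, where 8.76% of all tested windows of the genome were. The other 12 chromosome interiors together had 8.01%. Lower in IP were 36 windows, or 0.566%, where 0.640% of all windows were. The multi-mapped counts called 677 of 6602 windows higher (10.3%), against 7.00% of all windows, and 49 lower (0.742%, against 0.816% of all windows). The number of calls rested on single columns: it was 368 higher and 2 lower without input 1_1, and 279 higher and 5 lower without input B_1. It was 1345 higher and 502 lower without IP 1_1, and 1209 higher and 265 lower without IP B_1. Library totals as the scaling gave 443 higher and 372 lower windows. For these settings no share of all windows of the genome is given, nor is one below for bins, regions and genes. Such counts therefore do not show whether the interior's excess over the genome was kept.

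Set beside the other chromosomes, the chromosome 6 interior had the highest share of higher windows in the primary table and the second highest in the multi-mapped table. Chromosome 9 followed with 12.4% in the primary table and led in the multi-mapped table with 10.9%. Chromosome 12 had 12.1% and 9.59%. The differences between chromosomes were not tested, and chromosomes 6, 9 and 12 lay close together. For single IP columns, the share of primary windows at least 1.5 times the mean of the inputs was 6.15% in IP 1_1, the 4th of 13 interiors, beside 4.41% of all interiors. In IP B_1 it was 9.25%, the 2nd, beside 6.39% of all interiors. By multi-mapped counts the share was 1.03% in IP 1_1, the 11th, beside 1.15% of all interiors, and 4.71% in IP B_1, the 3rd, beside 3.28%. In the first 20 kb inside the margin at both ends 8 of 115 tested windows were higher (6.96%), and in the 20 kb outside it 24 of 134 chromosome 6 windows were (17.9%).

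**Figure D1:**
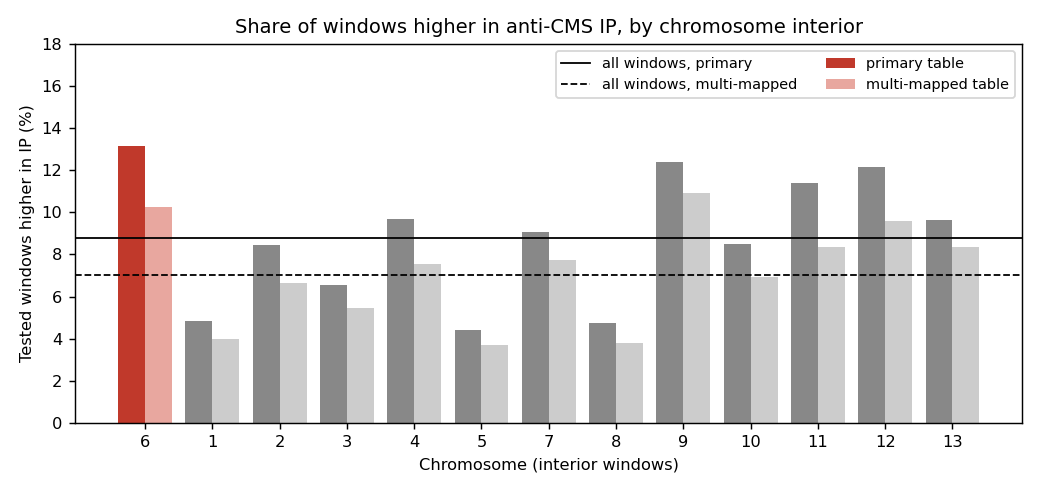
Percent of tested 300 bp windows higher in anti-CMS IP (edgeR, adjusted p under 0.05) for the interior of each of 13 chromosomes, chromosome 6 first. Dark bars are the primary table, light bars the multi-mapped table, and lines mark all windows of each table; chromosome 6 reaches 13.2% and 10.3%, beside 12.4% and 10.9% on chromosome 9.

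Most higher windows were modestly so. The median higher window was 1.47-fold above input in the primary table and 1.32-fold in the multi-mapped table. At least 2-fold were 123 primary windows (1.94%, against 1.80% of all windows), and at least 4-fold were 38 (0.598%, against 0.632% of all windows). The shares at 2-fold and 4-fold were thus near those of the genome, while the share of all higher windows was above it. Among the 836 higher windows, 629 had IP B_1 above IP 1_1 (75.2%), as did all 38 windows at 4-fold or more, where 50.8% of all tested interior windows did. The median of all tested interior windows was a log2 fold change of 0.02 in both tables. None of the lower windows reached 2-fold in edgeR's fit, where 362 tested windows lay below input at an unadjusted p under 0.05, and 4 windows were called lower by DESeq2's Wald test. The lowest primary window that passed, chosen after its values were seen, was chr6:1601701-1602000 with 6.37 and 6.57 CPM in IP, against 9.69 and 10.5 CPM in input.

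The 2 tables overlapped in part. Higher in both were 469 windows, which is 56.1% of the primary calls and 69.3% of the multi-mapped calls. For all 836 primary calls the multi-mapped log2 fold change was also positive, with a median of 0.36. Every one of the 38 windows at 4-fold or more in the primary table also passed by multi-mapped counts, but none reached 4-fold there, and their median log2 fold change was 1.04. The authors' deposited table for primary reads called 228 interior windows higher, which is 3.48% beside 3.26% of all windows there, and each of the 228 was also called here. By the authors' deposited table the interior's share was thus near that of the genome. The authors' deposited multi-mapped table called 331 interior windows higher, which is 5.01% beside 3.21% of all windows there, and 176 of them were called here.

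The higher windows were unevenly spread along the chromosome. In 50 kb bins summed and tested in the same way, 22 of 41 bins were higher in IP (53.7%), where 37.5% of all bins of the chromosome interiors were, and 5 were lower (12.2%), where 11.0% of all bins were. Multi-mapped counts gave 17 higher bins (41.5%, against 31.0% of all bins) and 12 lower bins (29.3%, against 27.3% of all bins). With a replicate block 2 bins were higher in the multi-mapped table, and with library totals 16 primary bins were higher and 18 lower. Leaving out IP 1_1 gave 12 lower primary bins, and leaving out IP B_1 gave 3. Leaving out input 1_1 gave 0 lower bins in edgeR's test, and leaving out input B_1 gave 1. The 19 bins with at least 20 higher windows held 92.6% of them, and 9 bins held none. Taken as a whole, both flanks were dense. In the first 8 bins, up to position 400000, 282 of 1204 tested windows were higher (23.4%). In the last 7 bins, from position 1700001, 227 of 876 were higher (25.9%). Between the flanks 327 of 4276 windows were higher (7.65%). The multi-mapped table gave 16.4% in the first block, 19.9% in the last and 6.25% between them. The blocks were not uniform. Bin chr6:100001-150000 in the first block had 1 of 166 tested windows higher in the primary table (0.602%). Bin chr6:1300001-1350000, between the blocks, had 58 of 166 (34.9%). The split into blocks was drawn after the profile was seen and was not tested.

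**Figure D2:**
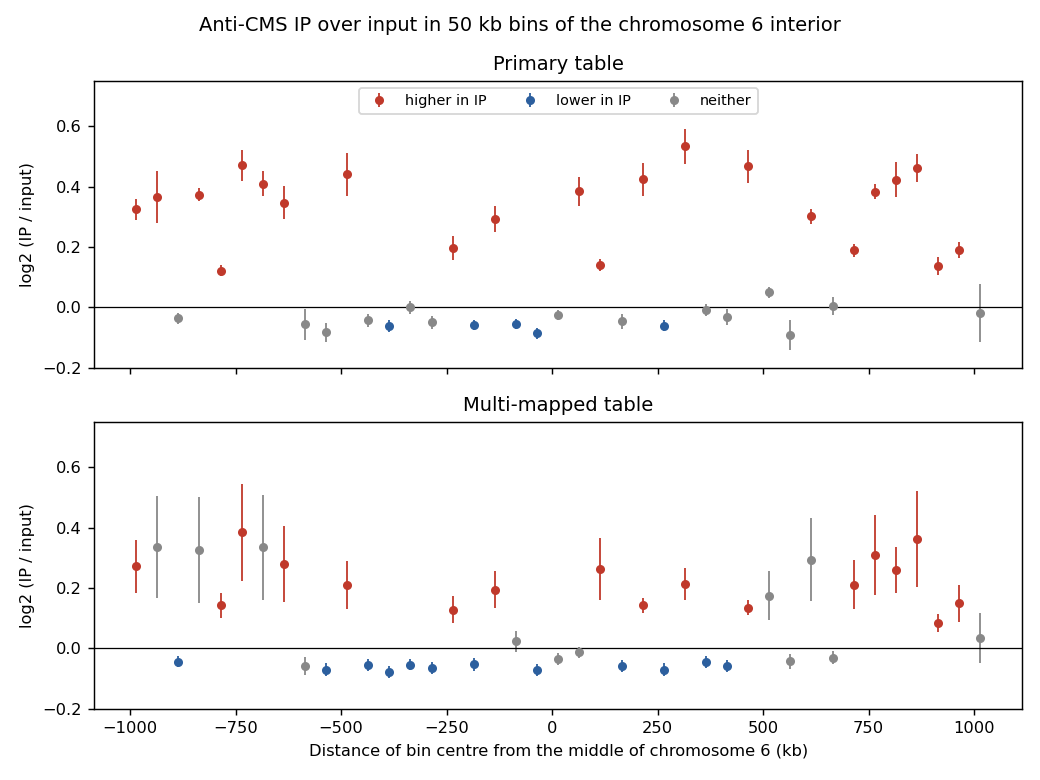
Log2 fold change of IP over input in 50 kb bins against distance from the middle of chromosome 6 in kb, for the primary table above and the multi-mapped table below. Points are bins, bars are SE, and colours mark bins higher, lower or neither at an adjusted p under 0.05; from primary counts 22 bins are higher and 5 lower, with most bins of both flanks above 0.

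The highest bin was chr6:1300001-1350000. It held 2211 and 2351 CPM in IP 1_1 and IP B_1, against 1588 and 1562 CPM in input 1_1 and input B_1, with no overlap. Its log2 fold change was 0.53 ± 0.06 in the primary table (SE, n = 2 columns each; edgeR's quasi-likelihood test, adjusted p = 0.000198) and 0.21 in the multi-mapped table. The bin with most higher windows was chr6:250001-300000, where 75 of 165 tested windows were higher and 11.98% of windows lay in genes. It held 1905 and 1902 CPM in IP, against 1419 and 1328 CPM in input, a log2 fold change of 0.47 ± 0.05 (SE, n = 2 columns each; edgeR's quasi-likelihood test, adjusted p = 0.000210). The next 3 bins, chr6:1450001-1500000, chr6:1850001-1900000 and chr6:500001-550000, had log2 fold changes of 0.47, 0.46 and 0.44. The call of chr6:500001-550000 was lost without input 1_1 (adjusted p = 0.0512) and without input B_1 (adjusted p = 0.0683), both from edgeR's test.

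The 5 lowest bins lay within 0.10 of 0 on the log2 scale. The lowest called bin was chr6:950001-1000000, with 1211 and 1203 CPM in IP, against 1292 and 1271 CPM in input. Its log2 fold change was -0.09 ± 0.02 (SE, n = 2 columns each; edgeR's quasi-likelihood test, adjusted p = 0.00466), and its call was lost without input 1_1 (adjusted p = 0.0697). Bins chr6:1250001-1300000 and chr6:600001-650000 were both at -0.06 and called lower. Bins chr6:1550001-1600000 (-0.09) and chr6:450001-500000 (-0.08) were not called. Bin chr6:1050001-1100000 differed between the tables: it was at 0.39 in the primary table and at -0.01 in the multi-mapped table, held 7 higher windows, and had 7.64% of its primary counts in 1 window.

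The longest stretch with no higher window in the primary table was chr6:939301-1073700, which is 134400 bp with 447 tested windows, a median log2 fold change of -0.06 and 2 calls in the multi-mapped table. The next was chr6:444301-531600, which is 87300 bp with no call in the multi-mapped table. In these 2 stretches 71.9% and 74.9% of windows had their midpoint in a gene, where 63.1% of the whole interior did.

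Bins with fewer windows in genes and more windows of high input had higher fold changes. Over the 40 bins with at least 100 windows, the median window log2 fold change had a Pearson r of -0.70 and a Spearman rho of -0.70 with the percent of windows in genes. A window was called high in input where its summed multi-mapped input was at least 1.5 times the median of all windows, and the percent of such windows had an r of 0.83 and a rho of 0.76 with the same median. The bins share their libraries and depth, and these are descriptions with no test. High-input windows made up 23.9% of the chromosome 6 interior and 11.1% of the other 12 interiors. Among tested high-input windows 30.8% were higher in IP on chromosome 6, and 31.2% on the other interiors. Among the rest 8.09% were higher on chromosome 6, and 5.26% on the other interiors. Windows at 4-fold or more had about the same share in both classes of chromosome 6, with 9 of 1414 high-input windows (0.636%) and 29 of 4942 of the rest (0.587%). On the other interiors their share was larger in the high-input class, with 218 of 11705 windows, than in the rest, with 482 of 98588. Why input differed between windows was not tested.

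The modest enrichment merged into 112 regions, defined as at least 3 higher windows with gaps of at most 1 window. They covered 11.3% of the interior, the median one 1800 bp long and the longest 9000 bp, and 158 higher windows lay outside them. Of the 112 regions 41 lay in the first 8 bins, 35 in the last 7 and 36 between. Per megabase the interior had 56.5 regions, beside 50.05 on chromosome 12 and 43.7 on chromosome 9, the next in order. The share covered was near that of chromosome 9, where it was 11.2% and the longest region was 11400 bp. In the summed CPM of each region both IP columns lay above both inputs, as the choice of windows nearly fixes. Fold changes of the sums ran from 1.34 to 21.9 with a median of 1.46. In 19 regions the fold was at least 2, and in 5 at least 4. A call in the multi-mapped table fell in 95 of the 112, where the median fold was 1.29. The number of regions was 44 without input 1_1, 31 without input B_1, and 54 with library totals.

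The region of highest fold was a peak at chr6:1455601-1456800, outside any annotated gene, with CC1G_07529 the nearest. It held 118 and 172 CPM in IP 1_1 and IP B_1, against 7.27 and 5.98 CPM in input 1_1 and input B_1, a 21.9-fold difference. From multi-mapped counts it held 59.5 and 77.9 CPM in IP, against 33.6 and 31.6 CPM in input, a 2.11-fold difference. The IP columns were far above the inputs in both tables, but the fold depended on the table. Its top window had 59.3 and 87.8 CPM in IP, against 3.24 and 2.58 CPM in input, in the primary table. At 1200 bp to the left the 4 primary columns lay between 0.0294 and 0.133 CPM, so primary counts do not show where the difference ends there. Multi-mapped counts at that place gave 9.56 and 10.8 CPM in IP, against 8.44 and 8.80 CPM in input. At 1500 bp to the right primary IP had 7.13 and 6.54 CPM, against 7.41 and 7.31 CPM in input. Both IP columns thus lay slightly below both inputs on that side.

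Next by fold was chr6:1073701-1075500, which touches CC1G_10322 and CC1G_10323. It held 396 and 594 CPM in IP, against 38.9 and 37.0 CPM in input, a 13.05-fold difference. Multi-mapped counts gave 66.5 and 79.8 CPM in IP, against 36.7 and 33.8 CPM in input, a 2.08-fold difference. Input levels were alike in both tables, while the IP level in the multi-mapped table was far lower. Its window chr6:1074001-1074300, chosen after its values were seen, had the largest log2 fold change of the interior. The window held 14598 and 13861 counts in IP, against 244 and 190 in input, and its log2 fold change was 4.98 (edgeR's quasi-likelihood test, adjusted p = 2.01e-07). The same window had, in the multi-mapped table, 308 and 291 counts in IP, against 168 and 130 in input, a log2 fold change of 1.41.

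Another peak, chr6:93601-94500 over CC1G_11839, held 214 and 274 CPM in IP, against 34.0 and 27.5 CPM in input, a 7.94-fold difference (1.62-fold in the multi-mapped table). It directly adjoins a block of 6 windows, chr6:91801-93600, that had the deepest coverage of the interior. The block held 459112 and 301217 counts in IP, against 139393 and 142198 in input. That is 7.05% and 7.30% of the interior's counts in IP, against 6.54% and 6.65% in input. The input of its deepest window was 120 times the median of all windows, and none of the 6 windows was called in the primary table. Leaving out windows of such input from the genome moved the interior's log2 fold change to 0.19.

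**Figure D3:**
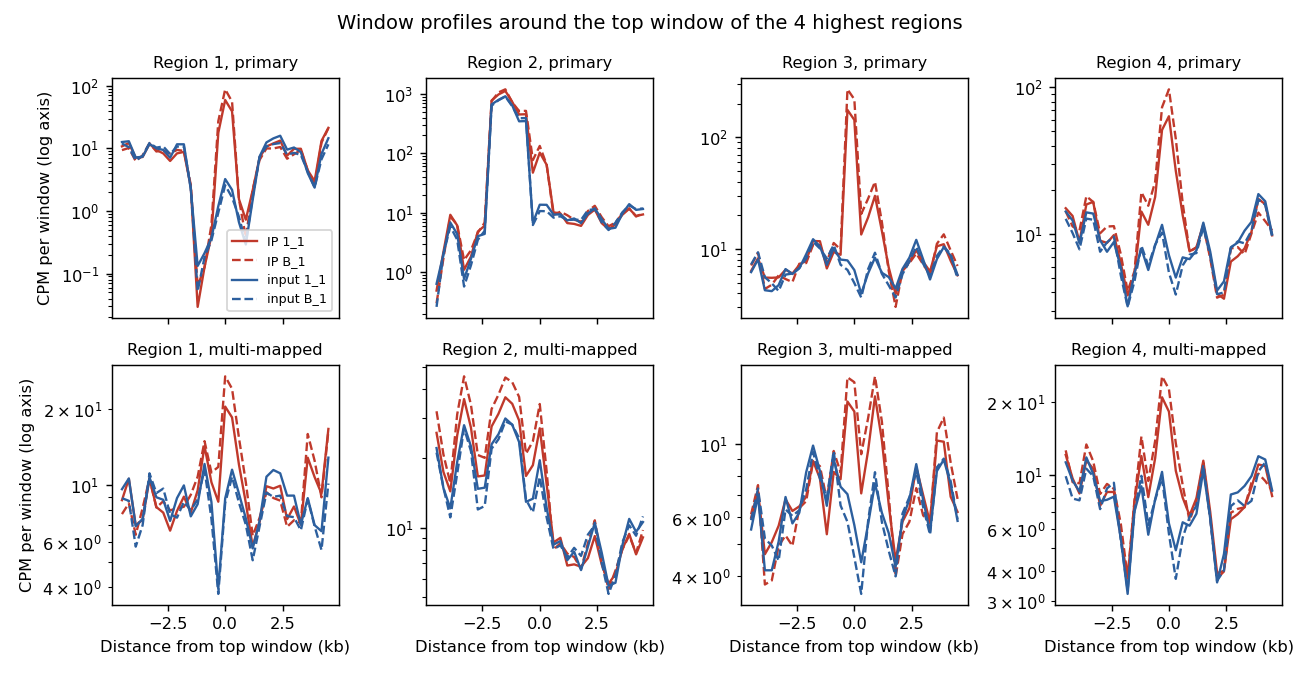
CPM per 300 bp window (log axis) against distance from the top window in kb for the 4 regions whose windows averaged the highest log2 fold change, primary table above and multi-mapped table below. Red lines are IP and blue lines input, solid for 1_1 and dashed for B_1; the IP lines stand above the input lines around the top window, less so in the multi-mapped table, and region 2 lies at the edge of the block of deep coverage.

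The other regions among the 10 of highest mean window log2 fold change were smaller in their difference. Region chr6:1829401-1831500, touching CC1G_07272 and CC1G_07271, held 199 and 289 CPM in IP, against 52.7 and 48.5 CPM in input, a 4.82-fold difference and 2.00-fold in the multi-mapped table. Region chr6:1221301-1223100, over CC1G_09507, held 215 and 312 CPM in IP, against 67.2 and 72.1 CPM in input, a 3.79-fold difference. The remaining 5 had folds of 2.32 to 3.45 in the primary table and of 1.42 to 1.79 in the multi-mapped table. They were chr6:1145101-1147500, chr6:1896601-1897500 and chr6:1312501-1314000, none of which touches a gene, and chr6:392101-394500 and chr6:1860301-1861800, which touch CC1G_15525 and CC1G_07260. In all 10 regions IP B_1 was above IP 1_1 in both tables. Region chr6:1336501-1339800, which is not among these 10, held 363 and 480 CPM in IP, against 102 and 101 CPM in input. Its summed fold was 4.15 in the primary table and 1.57 in the multi-mapped table.

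**Figure D4:**
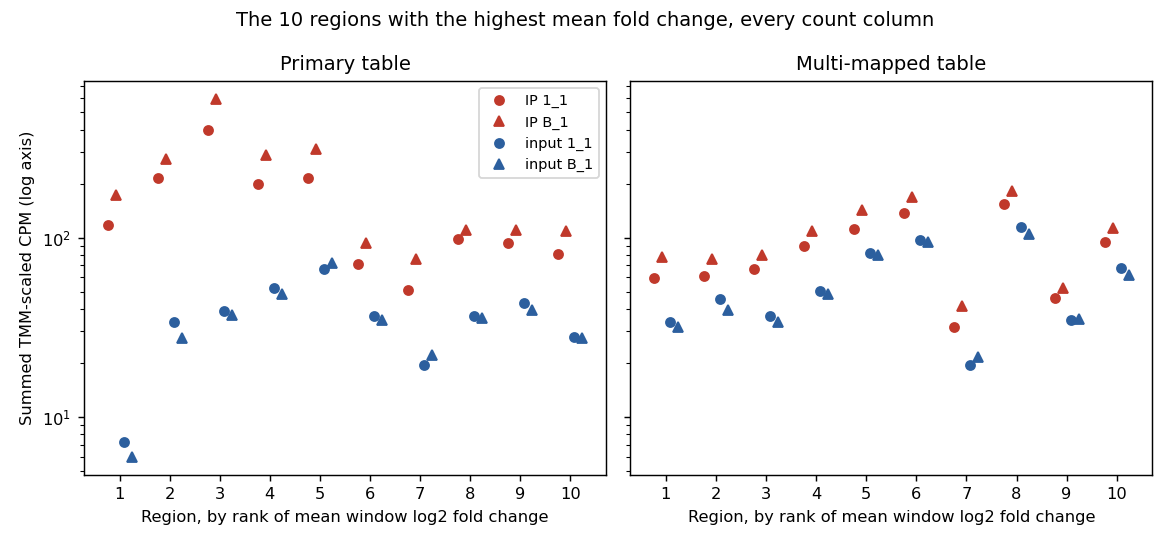
Summed TMM-scaled CPM (log axis) in each count column for the 10 regions whose windows averaged the highest log2 fold change, primary table left and multi-mapped table right. Red marks are IP and blue marks input, circles 1_1 and triangles B_1; region 1 has 118 and 172 CPM in IP against 7.27 and 5.98 CPM in input in the primary table, and the gap is smaller in the multi-mapped table for all 10.

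Summed over their length, the longest regions combined broad enrichment with modest fold, but single windows in some of them stood far higher. The longest, chr6:1238101-1247100, was 9000 bp with 28 of 30 windows higher, and touches CC1G_09513, CC1G_09514 and CC1G_09515. It held 524 and 635 CPM in IP, against 300.1 and 292 CPM in input, a 1.958-fold difference and 1.41-fold in the multi-mapped table. Region chr6:536401-543000 was 6600 bp with all 22 windows higher. It held 913 and 1082 CPM in IP, against 453 and 437 CPM in input, a 2.24-fold difference and 1.55-fold in the multi-mapped table. Region chr6:1460101-1466400, 6300 bp long and just beyond the 21.9-fold peak, held 527 and 691 CPM in IP, against 228 and 213 CPM in input, a 2.76-fold difference. Its window chr6:1464901-1465200 held 109.5 and 182 CPM in IP, against 9.77 and 10.5 CPM in input, in the primary table. Region chr6:266101-273000 was 6900 bp long and held 425 and 458 CPM in IP, against 278 and 270 CPM in input, a 1.61-fold difference. The other 6 of the 10 longest ran from 3600 to 5100 bp, with folds of 1.398 to 1.69. Of these, chr6:1625101-1629300 and chr6:282901-286500 touch no gene.

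Only 1 run of at least 2 adjacent windows was lower in IP. At chr6:219601-220200, across CC1G_15509 and CC1G_12108, IP held 14.7 and 13.1 CPM, against 19.5 and 18.2 CPM in input, a fold of 0.738. The multi-mapped fold was 0.821, and neither window was called there.

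Windows outside genes were higher more often than windows inside them. Of 2349 tested windows with their midpoint outside a gene 429 were higher (18.3%), and of 4007 inside a gene 407 were (10.2%), a ratio of 1.80. Multi-mapped counts gave a ratio of 1.78, and the primary table gave 2.17 on the other 12 interiors, where the shares were 12.4% and 5.73%. It was 2.58 without input 1_1, 2.26 without input B_1, 2.05 with library totals, and 3.54 for windows at least 2-fold higher. Of the 38 windows at 4-fold or more 29 lay outside genes, where 36.9% of all interior windows lie, and of the 36 lower windows 32 lay inside them, where 63.1% lie. By distance the share was 13.9% up to 0.3 kb from a gene and 13.6% from there to 1 kb. It was 28.2% from 1 to 2 kb, 32.6% from 2 to 4 kb and 28.3% beyond 4 kb. By multi-mapped counts the share beyond 4 kb was 5.79%, and all windows there were of high input. Within the lower-input class the primary shares were 11.7% outside genes and 6.39% inside, and in the high-input class 32.1% outside and 29.3% inside. By multi-mapped counts the lower-input class had 13.8% outside and 6.08% inside. The high-input class went the other way there, with 14.9% outside and 16.2% inside.

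**Figure D5:**
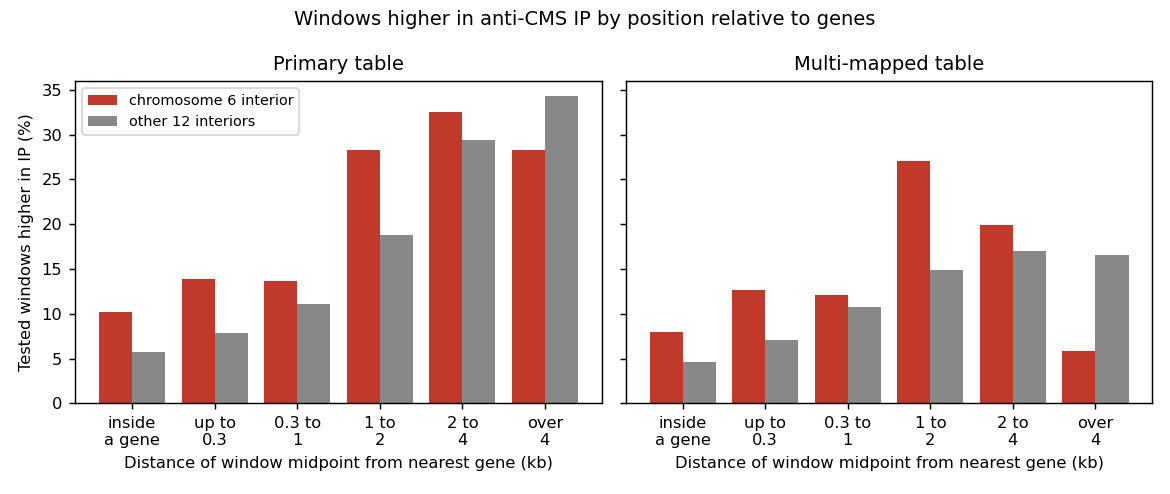
Percent of tested windows higher in anti-CMS IP by the distance of the window midpoint from the nearest gene in kb, primary table left and multi-mapped table right. Red bars are the chromosome 6 interior and grey bars the other 12 interiors; in the primary table chromosome 6 has 10.2% inside genes and 32.6% from 2 to 4 kb, and in the multi-mapped table the last red bar falls to 5.79%.

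Genes were tested on the sum of the windows whose midpoint they hold. Of 738 genes annotated on chromosome 6, 709 held an interior window and 702 were tested, with 151 higher in IP (21.5%), where 10.8% of all tested genes were, and 13 lower (1.85%, against 1.56% of all genes). At least 2-fold were 13 genes (1.85%, against 1.44% of all genes). By multi-mapped counts 174 genes were higher (24.5%, against 10.8% of all genes), 26 were lower (3.67%, against 2.86% of all genes), and 135 genes were higher in both tables. None of the 709 genes reached 2-fold in the multi-mapped table by edgeR's test, where 0.189% of all genes were called higher at 2-fold or more. The median log2 fold change of the tested genes was -0.02, and -0.04 over all genes of the genome. With library totals 126 genes were higher and 266 lower. The flanks held most of the higher genes: 57 of 128 tested genes in the first 8 bins, 47 of 98 in the last 7, and 47 of 476 between. Product names were not part of the gene table used here, and no function is given for these loci.

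The gene of largest fold was CC1G_10322, with 9 windows. It held 383 and 554 CPM in IP 1_1 and IP B_1, against 78.3 and 74.5 CPM in input 1_1 and input B_1. The log2 fold change of CC1G_10322 was 2.62 ± 0.14 (SE, n = 2 columns each; edgeR's quasi-likelihood test, adjusted p = 8.53e-07). By multi-mapped counts it was 0.30 (adjusted p = 0.000352). Of its 9 windows 2 were higher, both in the peak at chr6:1073701-1075500.

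CC1G_15596, within the long region that follows the 21.9-fold peak, held 104 and 161 CPM in IP, against 28.1 and 27.4 CPM in input. The log2 fold change was 2.25 ± 0.16 (SE, n = 2 columns each; edgeR's quasi-likelihood test, adjusted p = 5.54e-06). All 3 of its windows were higher. CC1G_11839, beside the block of deep coverage, held 193 and 226 CPM in IP, against 53.4 and 45.8 CPM in input, a 4.23-fold difference. CC1G_07272 held 80.7 and 111 CPM in IP, against 25.6 and 24.8 CPM in input, a 3.81-fold difference. Their multi-mapped log2 fold changes were 0.62, 0.40 and 0.90, all called higher.

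The next genes in order were CC1G_10343, CC1G_11262, CC1G_08709, CC1G_09507, CC1G_15540, CC1G_07258, CC1G_20215 and CC1G_15520, with folds of 2.91 to 2.05 in the primary table. Each of these 8 genes was also higher by the multi-mapped counts. That IP and input columns did not overlap follows from the rule that named them. CC1G_15540, with all 5 windows higher, held 247 and 292 CPM in IP, against 117 and 108 CPM in input. CC1G_09507 held 281 and 379 CPM in IP, against 133 and 140.2 CPM in input, with 6 of its 15 windows higher. CC1G_15520 had 320 counts in all and 1.73 and 1.36 CPM in IP, against 0.637 and 0.887 CPM in input. Its call was lost without input 1_1 (adjusted p = 0.284, edgeR) and by DESeq2's Wald test (adjusted p = 0.0965).

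CC1G_20215 is a tRNA gene, one of a class of short genes whose transcripts carry amino acids to the ribosome. Of 14 tRNA genes on the chromosome 5 could be tested, and their median log2 fold change was 0.01. CC1G_20215 was the 1 called, with 13.2 and 15.95 CPM in IP, against 6.98 and 6.76 CPM in input. Its log2 fold change was 1.08 ± 0.13 in the primary table (SE, n = 2 columns each; edgeR's quasi-likelihood test, adjusted p = 0.000182) and 0.45 in the multi-mapped table. It holds 1 window midpoint, inside the 6900 bp region chr6:266101-273000, so its value cannot be told apart from that of the region.

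The 5 lowest called genes were CC1G_09480, CC1G_15529, CC1G_10317, CC1G_09485 and CC1G_10337, and their folds of 0.738 to 0.810 were small beside those of the higher genes. CC1G_09480 held 9.50 and 9.44 CPM in IP, against 12.9 and 12.8 CPM in input. Its log2 fold change was -0.44 ± 0.11 (SE, n = 2 columns each; edgeR's quasi-likelihood test, adjusted p = 0.0165), and -0.32 in the multi-mapped table (adjusted p = 0.0175). CC1G_09485 was called in both tables too, and the other 3 were called in the primary table alone. The difference between tables was not tested. Without input 1_1 none of the 5 passed the threshold in edgeR's test, at adjusted p-values of 0.0772 to 0.516. Leaving out IP 1_1 gave 86 lower genes, leaving out input 1_1 gave 2, and leaving out input B_1 gave 8.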

How the data were processed

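Per the labels' protocols, DNA of oidia was isolated with a Qiagen plant kit and sequenced from TruSeq libraries. Tools named in the submitters' processing notes are Bowtie 0.12.7, Bismark 0.6.4 and edgeR, with no roles. The sources used here do not give the genome build, the read extension or the handling of duplicates. Whole-number counts per 300 bp window were deposited by the authors in 2 tables, with their own log2 fold changes (input over IP) and adjusted p-values, read here only to count the authors' calls. Another 8 per-sample columns, of RPKM, were left unused. Columns were assigned to IP or input by their headers, which name the group for all primary columns and for the multi-mapped inputs. The headers of the multi-mapped IP columns do not say IP. They were taken as IP because they lack the word input and the labels hold only IP and input libraries.

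Windows, 50 kb bins (windows by midpoint), genes and 15 genome parts were tested with edgeR 4.0.16 in R 4.3.3: TMM scaling over windows, a quasi-likelihood test of 2 IP against 2 input columns, at least 10 counts in all, and Benjamini-Hochberg adjustment over all features of the genome (threshold 0.05). SE came from the F statistic. DESeq2 1.42.0 was an alternative. The tests were also run on simulated counts that had the same spread in every column. In the real primary counts the IP pair differed more than the input pair, so that run cannot show how the tests perform here. Gene positions came from a RefSeq table of assembly CC3. With no build named for the windows, the frame was checked: on chromosome 6 input correlated with gene cover at r = 0.168 with no shift, the best of all shifts, against at most 0.101 in size beyond 10 windows. Named items are the 10 longest regions, the 10 of highest mean window log2 fold change with both IP columns above both inputs, runs of at least 2 lower windows, 5 highest and 5 lowest bins, and, with at least 50 counts and no overlap, 12 highest genes, the 5 lowest and every called tRNA gene. Members and lists were chosen with earlier results of these data known. No sequence is shown, since no genome was used. Depth limits apply to counting error only.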

Additional observations from a re-analysis of the deposited data

How the results depend on the processing

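Of 131 recomputed summary values 81 stayed within 1.5 times the main count, within the ratio's 95% interval (1.59 to 2.04, taking windows as independent) or on the same side of the threshold. Library totals gave 443 higher and 372 lower windows, 54 regions, 18 lower bins, 266 lower genes and a ratio outside over inside genes of 2.05. DESeq2's Wald test gave 4 lower windows and 8 lower bins. The threshold of 0.01 gave 385 windows higher and 2 lower, 46 regions, 1 lower bin and 2 lower genes. At least 2-fold gave 123 higher and 0 lower windows, 20 regions, 13 higher and 0 lower genes by edgeR and a ratio of 3.54. In the multi-mapped table there were 12 lower bins and 26 lower genes. A cut at 2-fold there, added after seeing the data, gave 27 higher windows (0.409%, against 0.438% of all windows). It gave 0 higher genes, where 0.189% of all genes passed. The interior thus had no excess at that cut. Gaps of 5 windows gave 67 regions, 5 called windows gave 65, and 100 kb bins gave 1 lower bin. The cause of each change was not tested. Most counts in this section stand without the share of all features under the same setting. They do not show whether an excess over the genome was kept.

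The replicate tags do not pair the columns by any label, and their deviations correlated at r = 0.207 (primary) and 0.0611 (multi-mapped). With the tag as a replicate block there were 1252 higher and 212 lower windows and 55 lower genes. The multi-mapped table with the block gave 2 higher bins, 34 lower genes, a ratio of 1.57 and a log2 fold change of the interior of 0.16 (edgeR, adjusted p = 0.0710). Leaving out 1 column, where a lone column is assumed to vary like the other group, gave 279 to 1345 higher and 2 to 502 lower windows, 31 to 136 regions, 0 to 12 lower bins, 2 to 86 lower genes and ratios of 1.82 to 2.58. Named genes kept direction in each alternative, and 22 of their recomputed values lost the threshold. Each named region's fold differed by more than 1 SD in the multi-mapped table. With 2 columns a group, small differences may go uncalled.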

Other observations

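A share of the chromosome 6 interior could not be tested in the primary table. Of the 6602 windows 246 had fewer than 10 primary counts in all (3.73%, the highest share of 13 interiors, beside 2.29% on chromosome 10), in 58 runs. By multi-mapped counts 66.7% of them were high-input windows, where 22.2% of the tested windows were. Their median multi-mapped log2 fold change was 0.24, against 0.01 for the tested windows, and 50 of them were called higher there. The longest run, chr6:1713601-1723800, held 59 primary counts in all over 34 windows. From multi-mapped counts it held 408 and 499 CPM in IP, against 365 and 350 CPM in input, and 16 of its windows were called higher. Bins chr6:1700001-1750000 and chr6:1750001-1800000 held 108 of the untested windows.

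Another run of 12 untested windows, chr6:346801-350400, held 198 and 240.5 CPM in IP, against 182 and 185 CPM in input in the multi-mapped table. A further run of 12, chr6:901801-905400, held 202 and 240.1 CPM in IP, against 182 and 186 CPM in input. IP 1_1 and IP B_1 both lay above both inputs in each, and no window of either run was called.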
